A study of Homo sapiens with 8 samples.

Results

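Mitochondrial ribosomal protein genes are described here across the RKO and SW480 colorectal cancer cell lines, in 8 RNA-seq libraries. The members are the genes whose symbol in the deposited count table is MRPL or MRPS followed by a number and at most 1 letter, without pseudogenes. The rule found 78 of the 16829 genes in the table, and it used no measured value. The series asks, by its title, how raising or lowering CYP1B1, a cytochrome P450 monooxygenase, changes gene expression in proliferating colorectal cancer cells. The 4 groups, of 2 libraries each, are RKO with CYP1B1 overexpression, RKO control, SW480 with a short hairpin against CYP1B1 (shCYP1B1) and SW480 with a non-targeting hairpin (shNT). Per the labels, both lines were grown in serum-containing medium and received lentivirus. The labels do not say whether the cells were clones or pools, and both knockdown libraries carry the same hairpin number in the column names. Separate cultures are not stated either, so the p-values rest on a spread between samples that could be technical only.

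The mitochondrial ribosome translates the few messages encoded by mitochondrial DNA, all of which specify core subunits of the respiratory chain and ATP synthase. Its RNAs come from mitochondrial DNA, whereas its proteins are encoded in the nucleus, made in the cytosol and imported, so their genes depend on nuclear transcription. Some of these proteins descend from those of the bacterial ribosome and others were added in mitochondria. Of the 78 members, 51 encode proteins of the large subunit and 26 of the small subunit, with MRPS18A and MRPS30 placed in the large subunit, where their products sit. MRPS36 was set apart, because its product is now counted with the 2-oxoglutarate dehydrogenase complex.

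Total counts were between 31550173 and 34921085 per library. CYP1B1 stood at 437 and 519 normalised CPM in RKO overexpression libraries and 0.685 and 0.701 in RKO controls, and at 0.367 and 0.301 in SW480 shCYP1B1 libraries and 1.44 and 2.20 in shNT libraries (CPM, the count relative to the library total after TMM scaling). Every library went with its label. Of 9 colorectal epithelial markers, KRT20 and LGALS4 were under 0.4 CPM in every library of both lines. RKO libraries held KRT18 (176 to 189 CPM), KRT8 (45.9 to 80.8) and CDX2 (23.1 to 25.7), with EPCAM, KRT19, CDH1 and VIL1 under 2 CPM. SW480 libraries held KRT8 and KRT18 at 2069 CPM or more. With knockdown, KRT8, KRT18 and CDH1 were higher and EPCAM, KRT19, VIL1 and CDX2 lower: EPCAM had 22.5 and 23.3 CPM in shCYP1B1 and 131 and 131 CPM in shNT, and KRT19 had 258 and 241 CPM in shCYP1B1 and 489 and 456 CPM in shNT. The summed CPM of these markers was 283 and 298 in RKO overexpression and 264 and 250.05 in RKO control, and 5691 and 5736 in shCYP1B1 and 5288 and 5075 in shNT, most of it KRT8 and KRT18 in SW480. That of 15 stromal, endothelial, immune and other markers was 698 and 674 in RKO overexpression and 784 and 697 in RKO control, nearly all of it CD68, and 48.1 and 50.3 in shCYP1B1 and 21.0 and 26.4 in shNT. CD68, a macrophage marker that other cells also express, had 22.5 and 24.4 CPM in shCYP1B1 and 5.36 and 6.87 CPM in shNT. The collagen gene COL1A1 had 17.9 and 19.99 CPM in shCYP1B1 and 7.76 and 11.2 CPM in shNT. In RKO, COL1A1 had 8.80 and 7.86 CPM in overexpression and 8.69 and 4.44 CPM in control. The part of these markers in the results below was not tested. COL1A2, COL3A1, VWF and LYZ passed 1 CPM in some libraries, with at most 2.54 CPM (VWF in shNT library 1). The other genes of this list, among them the leukocyte gene PTPRC and the T cell gene CD3E, were under 1 CPM in every library. The RKO overexpression pair differed most: its chi-square statistic per member was 16.8, against 6.32 for the RKO controls, 4.10 for shCYP1B1 and 5.22 for shNT. Per gene over all genes it was 44.5, against 6.65, 4.68 and 5.74 in the same order.

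Levels of the members are compared with each other in deposited FPKM, which divide the count by gene length and library total. The median over the 78 genes of their mean FPKM across the 8 libraries was 38.3, and the middle of the distribution lay between 18.2 and 58.1 (quartiles). MRPL41, a mitochondria-specific protein of the large subunit, was highest at 148 ± 59.7 FPKM (SD over the 8 libraries), followed by MRPS2, a small-subunit protein with a bacterial homologue, at 140.5 ± 41.4 and MRPS34 at 135 ± 9.81. MRPS6, with a bacterial homologue, came next at 124.5 ± 115. The spread of MRPL41 and MRPS2 overlaps with the mean of MRPS34, so these 3 are not ordered beyond their variation across libraries. The order differed between the lines. MRPL41 was highest in RKO, with group means of 233 FPKM in overexpression and 163 FPKM in control, and stood at 107 FPKM in shCYP1B1 and 90.2 FPKM in shNT. MRPS6 was highest in SW480, with 290 FPKM in shCYP1B1 and 151 FPKM in shNT, and stood at 30.5 FPKM in RKO overexpression and 26.5 FPKM in RKO control. MRPS34 changed place little, with group means from 127 to 145 FPKM. At the other end, MRPL23 averaged 3.22 ± 1.71 FPKM and MRPS28, of the small subunit, 3.11 ± 1.32. MRPS24 averaged 0.181 ± 0.167 FPKM on 1 and 6 counts in RKO overexpression, 0 and 1 in RKO control, 5 and 3 in shCYP1B1 and 12 and 5 in shNT, and was the only member below the filter on low counts. In the GENCODE 29 annotation it shares 23.2% of its exon bases with the readthrough gene URGCP-MRPS24, so a low count need not mean a low transcript level. The tests below therefore cover 77 members.

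**Figure D1:**
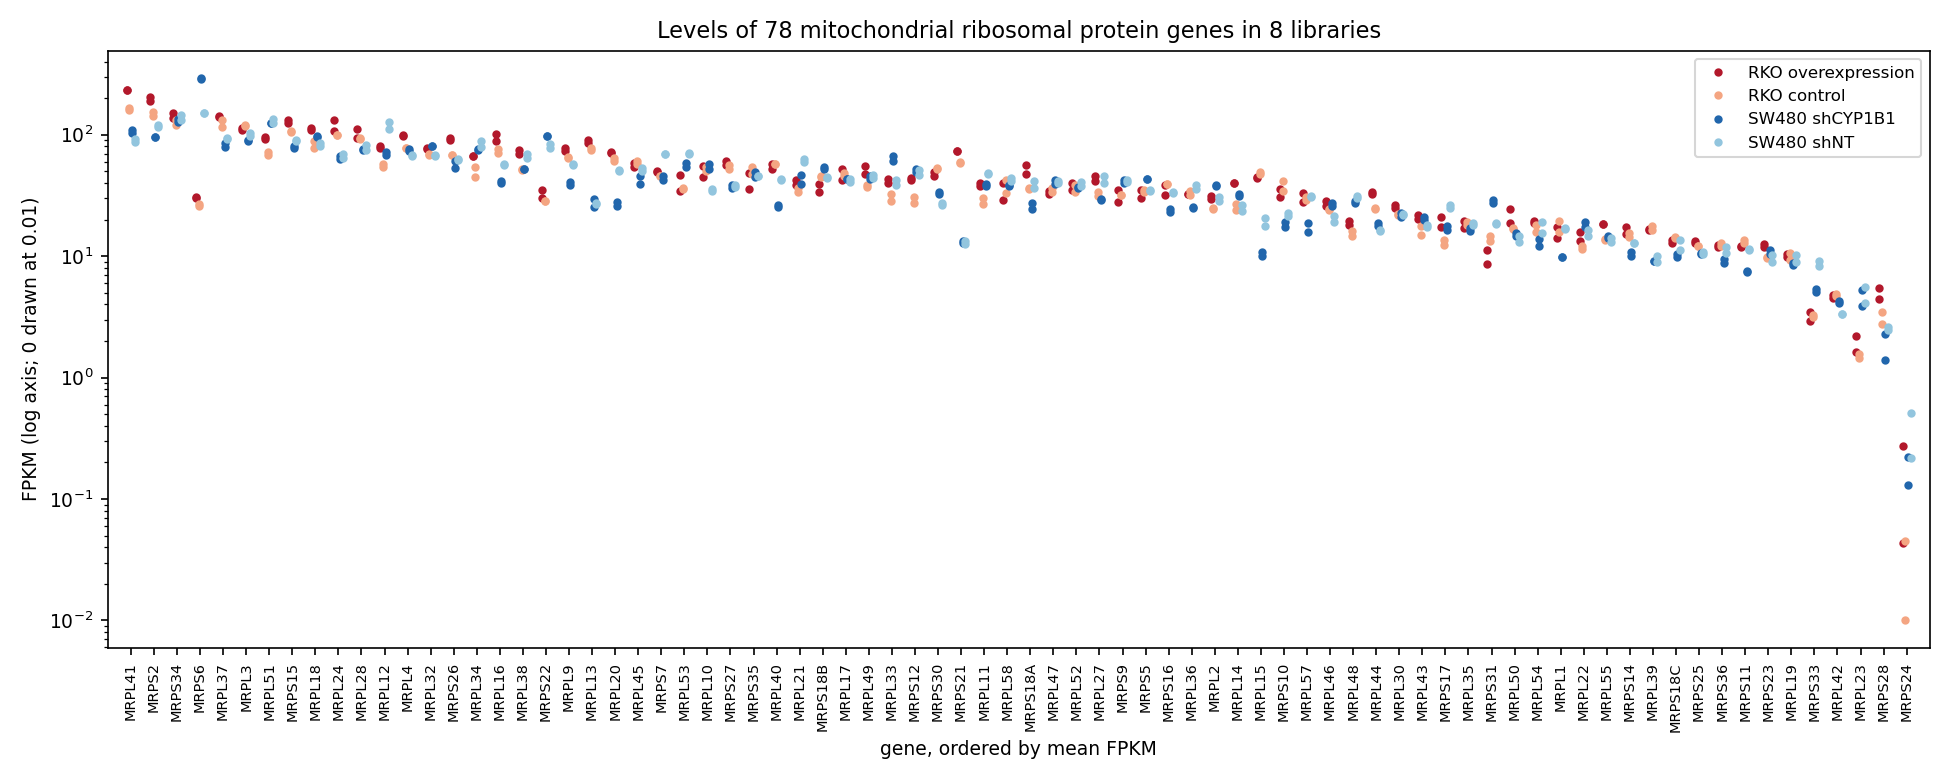
FPKM (log axis) of the 78 members in each of the 8 libraries, ordered by their mean, with 1 point per library coloured by group. MRPL41 is highest in the mean (148), MRPS6 and MRPS21 show wide gaps between RKO and SW480 libraries, and MRPS24 stands alone at the bottom with a mean of 0.181.

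With CYP1B1 overexpression in RKO, 31 of the 77 members rose and 2 fell at an adjusted p under 0.05 (edgeR quasi-likelihood F test, Benjamini-Hochberg adjustment over 14157 genes). Over all genes tested, 13.8% rose and 13.8% fell. The median log2 fold change of the members was 0.20, beside 0.00 for all genes, and 55 members were above 0. Both overexpression libraries stood above both controls for 48 members and below both for 7, where the shares over all genes were 28.8% and 30.0%. Only 7 members (9.09%) went beyond 0.5 on the log2 scale in either direction, against 26.8% of all genes. Against the mean of the controls the members' median was 0.24 in overexpression library 1 and 0.15 in library 2.

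Summed over the 78 members, the level was 5878 and 5593 CPM in RKO overexpression, against 5119 and 4937 CPM in RKO control. That is 0.596% and 0.567% of all counts in the overexpression libraries and 0.521% and 0.511% in the controls. The number of members that rose depended on the libraries used, as did the share of all genes that rose. It was 14 members (18.2%, all genes 6.39%) without control library 2 and 21 members (27.3%, all genes 8.22%) without control library 1. It was 30 members (39.0%, all genes 19.0%) without overexpression library 1 and 40 members (51.9%, all genes 16.6%) without overexpression library 2. The number that fell was 0 without either control library (all genes 7.64% without control library 1 and 6.10% without control library 2), 8 without overexpression library 1 (all genes 20.7%) and 1 without overexpression library 2 (all genes 15.6%). In a fit on the RKO libraries alone, 21 rose and 0 fell, where 7.52% of all genes rose and 7.97% fell. The main fit takes 1 spread per gene over all 4 groups, although the RKO overexpression pair differed most. The main RKO counts of 31 and 2 therefore rest in part on the spread of the SW480 libraries.

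MRPL41 had 134 and 133 CPM in overexpression libraries and 91.7 and 93.7 CPM in controls. The groups did not overlap, and the replicates lay close together. The change was 0.53 on the log2 scale (SE 0.07, adjusted p = 4.40e-04, edgeR). The gene is at chr9:137551199-137552555, plus strand (GRCh38). MRPL14, a large-subunit protein at the interface with the small subunit, had 54.1 and 54.0 CPM in overexpression libraries and 32.6 and 35.3 CPM in controls. Its change of 0.67 (SE 0.09, adjusted p = 5.02e-04, edgeR) had the largest size among the members called in RKO. MRPS12, whose bacterial counterpart forms part of the decoding centre, had 42.7 and 41.4 CPM in overexpression libraries and 26.6 and 29.2 CPM in controls, a change of 0.59 (SE 0.10). MRPL38, a mitochondria-specific large-subunit protein, changed by 0.49 (SE 0.08), MRPL51 by 0.44 (SE 0.07), MRPS2 by 0.43 (SE 0.07) and MRPL11 by 0.45 (SE 0.08). Adjusted p of these 5 genes lay between 9.52e-04 and 1.46e-03 (edgeR). All 7 genes named in this paragraph kept their calls in each alternative run for RKO.

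The 2 members that fell were MRPS31 and MRPS18B, both small-subunit proteins classed as mitochondria-specific in the unified nomenclature. MRPS31 had 16.4 and 12.7 CPM in RKO overexpression and 21.4 and 19.2 CPM in control, a change of -0.48 on the log2 scale (SE 0.13, adjusted p = 0.0201, edgeR). MRPS18B had 74.8 and 63.4 CPM in overexpression and 85.3 and 85.2 CPM in control, a change of -0.30 (SE 0.08, adjusted p = 0.0196, edgeR). In both genes overexpression library 2 was the lower of the pair. Without that library the changes were -0.31 for MRPS31 (adjusted p = 0.0737) and -0.19 for MRPS18B (adjusted p = 0.0392). Without control library 1 or 2 neither gene passed, with adjusted p of 0.137 and 0.0530 for MRPS31 and 0.0956 and 0.106 for MRPS18B.

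By subunit, 23 large-subunit members rose and 0 fell in RKO out of 51, and 8 small-subunit members rose and 2 fell out of 25 tested. The medians were 0.23 and 0.14 on the log2 scale. Of the 45 tested members with a bacterial homologue, 21 rose and 0 fell (median 0.23), and of the 31 mitochondria-specific members, 10 rose and 2 fell (median 0.20). Over all genes, 13.8% rose and 13.8% fell. No test of these classes against each other was made. Without control library 2, where 12.5% of all genes were called in either direction, 11 large-subunit and 3 small-subunit members passed, and 8 with a bacterial homologue and 6 mitochondria-specific ones. Without control library 1 the 4 numbers were 15, 6, 12 and 9, with 15.9% of all genes called.

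With CYP1B1 knockdown in SW480 the members moved both ways: 17 rose and 21 fell of 77. Over all genes tested, 25.3% rose and 25.3% fell, so the share of members called in each direction was near the background. The median log2 fold change was -0.04, beside 0.00 for all genes, and 33 members were above 0. Both shCYP1B1 libraries stood above both shNT libraries for 24 members and below both for 36, where 40.3% and 40.4% of all genes did so. The summed level was 4994 and 5015 CPM in shCYP1B1 and 5079 and 4976 CPM in shNT, so these groups overlapped. Beyond 0.5 on the log2 scale in either direction were 17 members (22.1%), against 42.4% of all genes. Without shNT library 1, 11 members rose and 17 fell, where 18.2% of all genes rose and 18.4% fell.

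**Figure D2:**
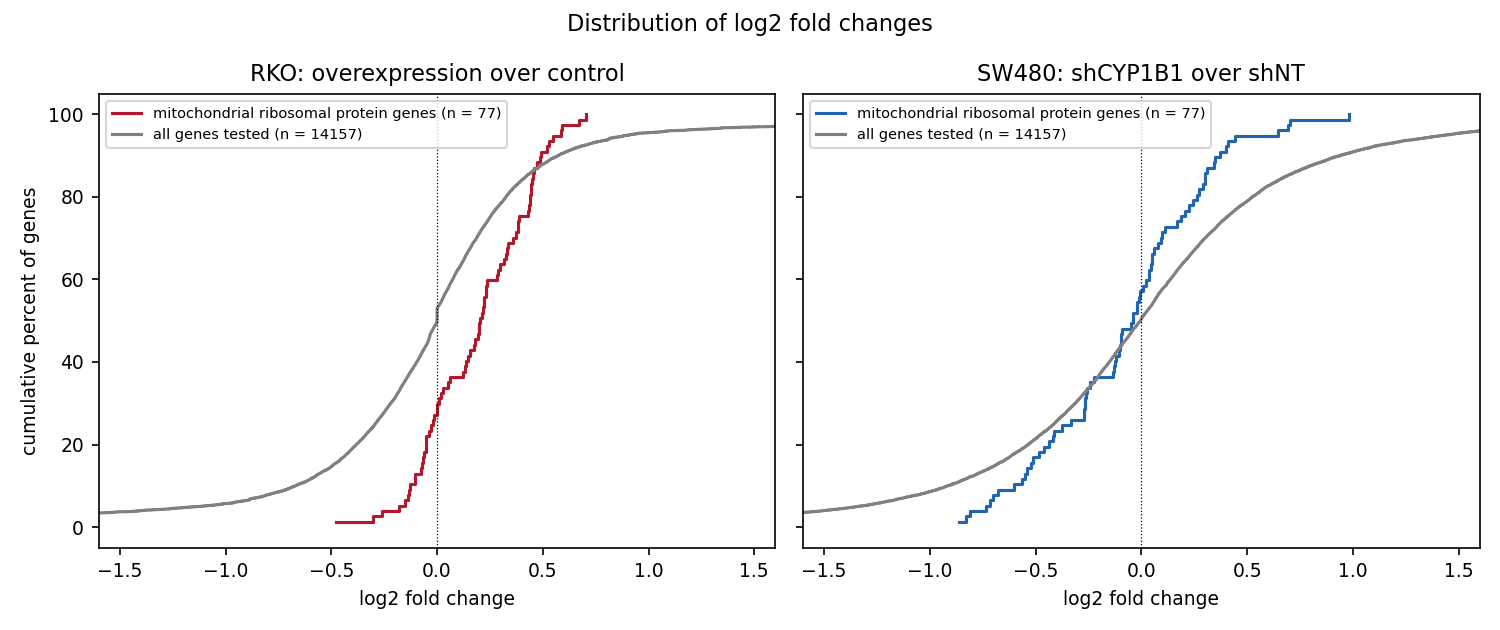
Cumulative distribution of log2 fold changes of the 77 members (coloured) and of all 14157 genes tested (grey), with overexpression over control in RKO on the left and shCYP1B1 over shNT in SW480 on the right. In RKO the members' curve lies to the right of that of all genes at its middle (medians 0.20 and 0.00), and in SW480 the curves cross near 0 (medians -0.04 and 0.00).

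MRPS6, a small-subunit protein with a bacterial homologue, had 275 and 284 CPM in shCYP1B1 libraries and 142 and 141 CPM in shNT libraries. This was the largest change of any member in SW480, 0.98 on the log2 scale (SE 0.07, adjusted p = 8.25e-07, edgeR). MRPS6 is at chr21:34073224-34143034, plus strand, where 6.35% of its exon bases belong also to SLC5A3, an inositol transporter gene on the same strand. SLC5A3 stood at 593 and 592 CPM in shCYP1B1 and 329 and 362 CPM in shNT, a change of 0.78 (SE 0.13, adjusted p = 4.02e-04, edgeR). Reads in the shared bases cannot be assigned to 1 of these genes, and their part in the result was not tested.

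MRPL10 had 121 and 110.2 CPM in shCYP1B1 and 73.3 and 69.4 CPM in shNT, a change of 0.69 on the log2 scale (SE 0.10, adjusted p = 1.81e-04, edgeR). MRPL12 had 71.5 and 75.3 CPM in shCYP1B1 and 128 and 113 CPM in shNT, a change of -0.72 (SE 0.08, adjusted p = 3.09e-05, edgeR). In bacteria the counterpart of MRPL10 anchors that of MRPL12 in the stalk that recruits elongation factors, and the counterpart of MRPL11 sits at the stalk base. The 3 stalk genes thus did not move together in SW480: MRPL10 rose, while MRPL12 fell and MRPL11 fell by 0.27 (SE 0.08, adjusted p = 0.0107, edgeR). MRPL11 did not pass without shNT library 1 (adjusted p = 0.0830) or without shCYP1B1 library 1 (adjusted p = 0.107). In RKO, MRPL12 and MRPL11 rose by 0.52 and 0.45, and MRPL10 stood at -0.05 (SE 0.10, adjusted p = 0.758, edgeR), with 109.6 and 88.9 CPM in overexpression and 108 and 97.9 CPM in control.

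MRPL20, a large-subunit protein with a bacterial homologue, fell most in SW480. It had 30.1 and 28.2 CPM in shCYP1B1 and 53.6 and 52.5 CPM in shNT, a change of -0.86 (SE 0.08, adjusted p = 8.54e-06, edgeR). MRPL15 had 23.7 and 22.1 CPM in shCYP1B1 and 43.5 and 37.8 CPM in shNT, a change of -0.83 (SE 0.09, adjusted p = 2.02e-05, edgeR). In both genes the shCYP1B1 libraries lay well below the shNT libraries. MRPL57 changed by -0.81 (SE 0.10), MRPL40 by -0.68 (SE 0.10), MRPS7 by -0.60 (SE 0.08), MRPS11 by -0.57 (SE 0.09) and MRPL9 by -0.49 (SE 0.07). MRPS7 and MRPS11 belong to the head and platform of the small subunit in bacteria. Among the genes that rose, MRPL33 changed by 0.70 (SE 0.12), MRPS31 by 0.64 (SE 0.13), MRPL2 by 0.41 (SE 0.08), MRPL42 by 0.37 (SE 0.07), MRPS5 by 0.35 (SE 0.08) and MRPS30 by 0.34 (SE 0.08). MRPL2 is a protein of the peptidyl transferase region. Adjusted p of these 11 genes were at most 3.69e-03 (edgeR), and all 11 passed in each alternative run for SW480.

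By class, 12 large-subunit members rose and 15 fell in SW480, and 5 small-subunit members rose and 6 fell. Of the members with a bacterial homologue 10 rose and 15 fell, and of the mitochondria-specific ones 7 rose and 6 fell. The medians of the 4 classes lay between -0.10 and -0.02. The share that rose was at most 23.5% and the share that fell lay between 19.4% and 33.3%, around the 25.3% of all genes in each direction.

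**Figure D3:**
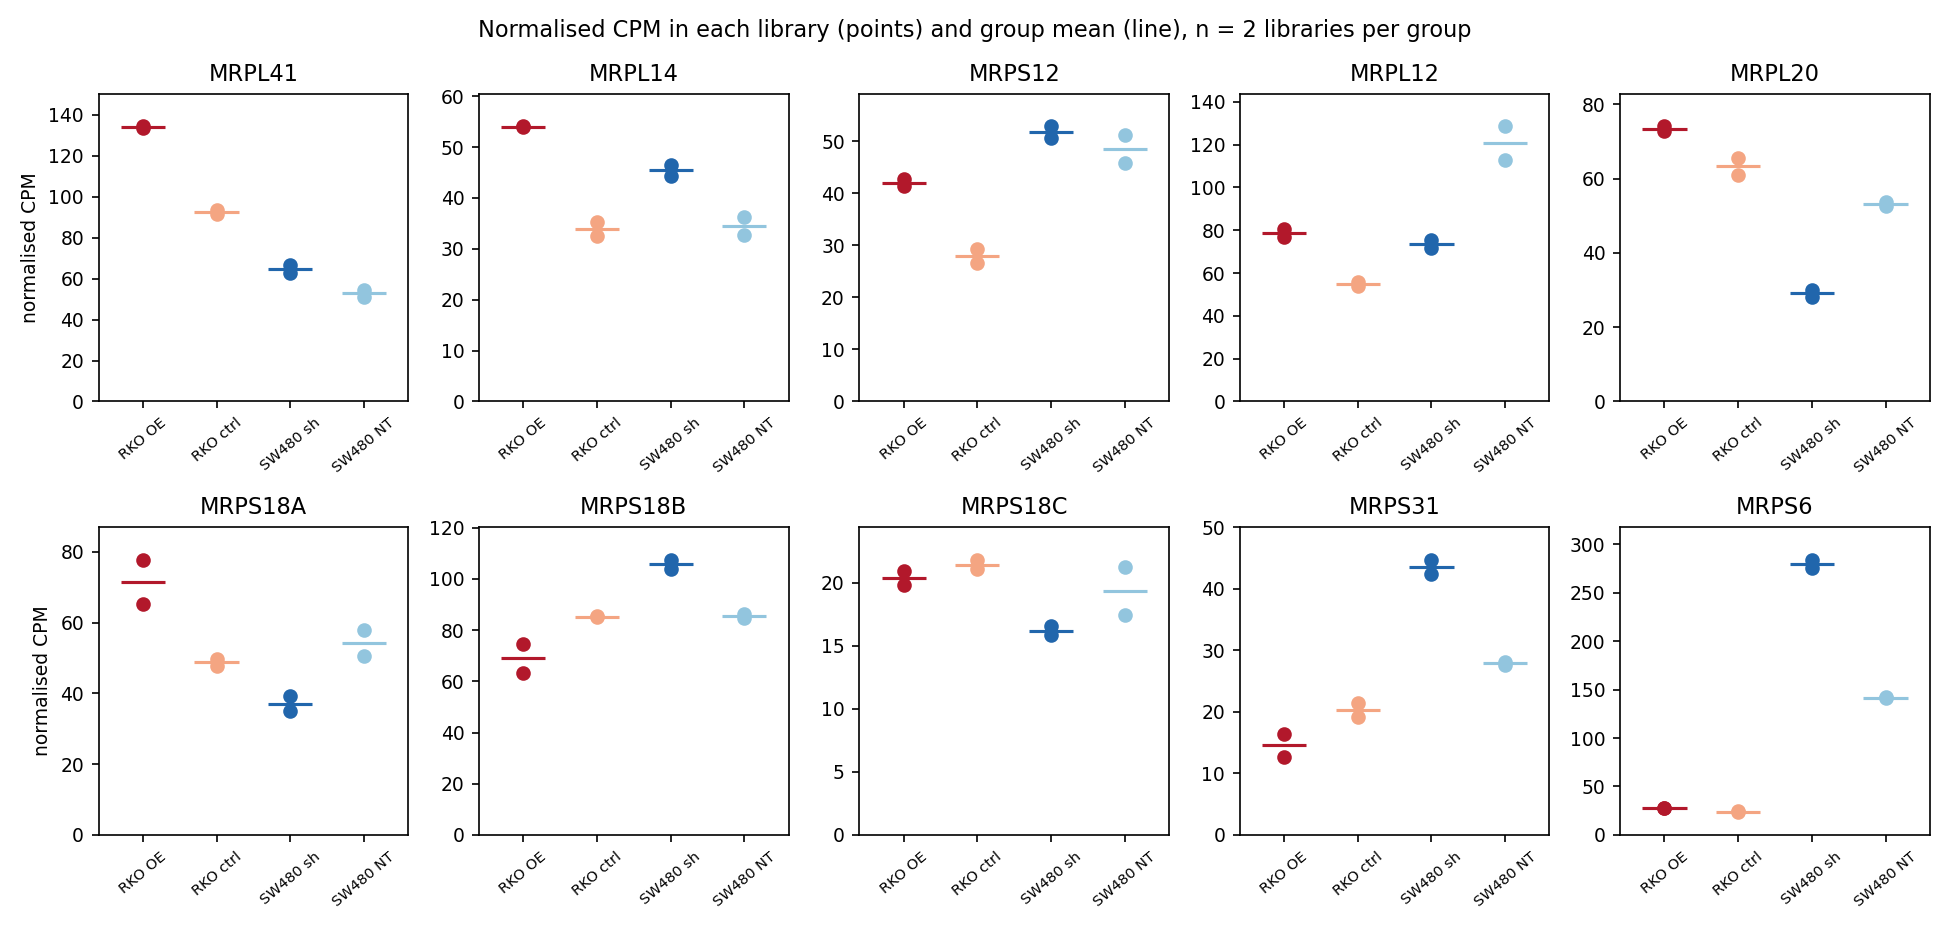
Normalised CPM of 10 members in each library (points) with the mean of each group (line), for RKO overexpression (RKO OE), RKO control (RKO ctrl), SW480 shCYP1B1 (SW480 sh) and SW480 shNT (SW480 NT), 2 libraries each. MRPL41 and MRPL14 are higher in the first group of each pair, MRPL12 and MRPS18A are higher in RKO overexpression and lower in shCYP1B1, and MRPS18B and MRPS31 show the reverse.

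The manipulations run in opposite directions, CYP1B1 raised in RKO and lowered in SW480, and the lines, the vectors and the starting level of CYP1B1 differ as well, so these factors cannot be told apart. The 2 comparisons share no libraries. Of the 77 members, 8 rose in both lines (4.49% of all genes did), 9 rose in RKO and fell in SW480 (3.45%), 2 fell in RKO and rose in SW480 (3.14%) and 0 fell in both (4.62%). A further 14 rose in RKO and were not called in SW480, 7 rose and 12 fell in SW480 and were not called in RKO, and 25 were called in neither. The counts of members that rose in RKO start from the larger share that rose there (40.3%, all genes 13.8%). Whether the overlap of calls exceeded that of independent calls was not tested. Across the 77 members the changes in the lines had a Pearson correlation of 0.0247 and a Spearman correlation of 0.0644. Over all genes tested the values were 0.0572 and 0.0723, so the low correlation was not particular to the members. These values are given as a description over genes fitted in 1 model. The difference between the effects (RKO minus SW480) passed the test for 26 members in the positive sense and 7 in the negative sense, where 19.2% and 18.3% of all genes did so. Its median was 0.24 on the log2 scale, beside 0.00 for all genes.

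**Figure D4:**
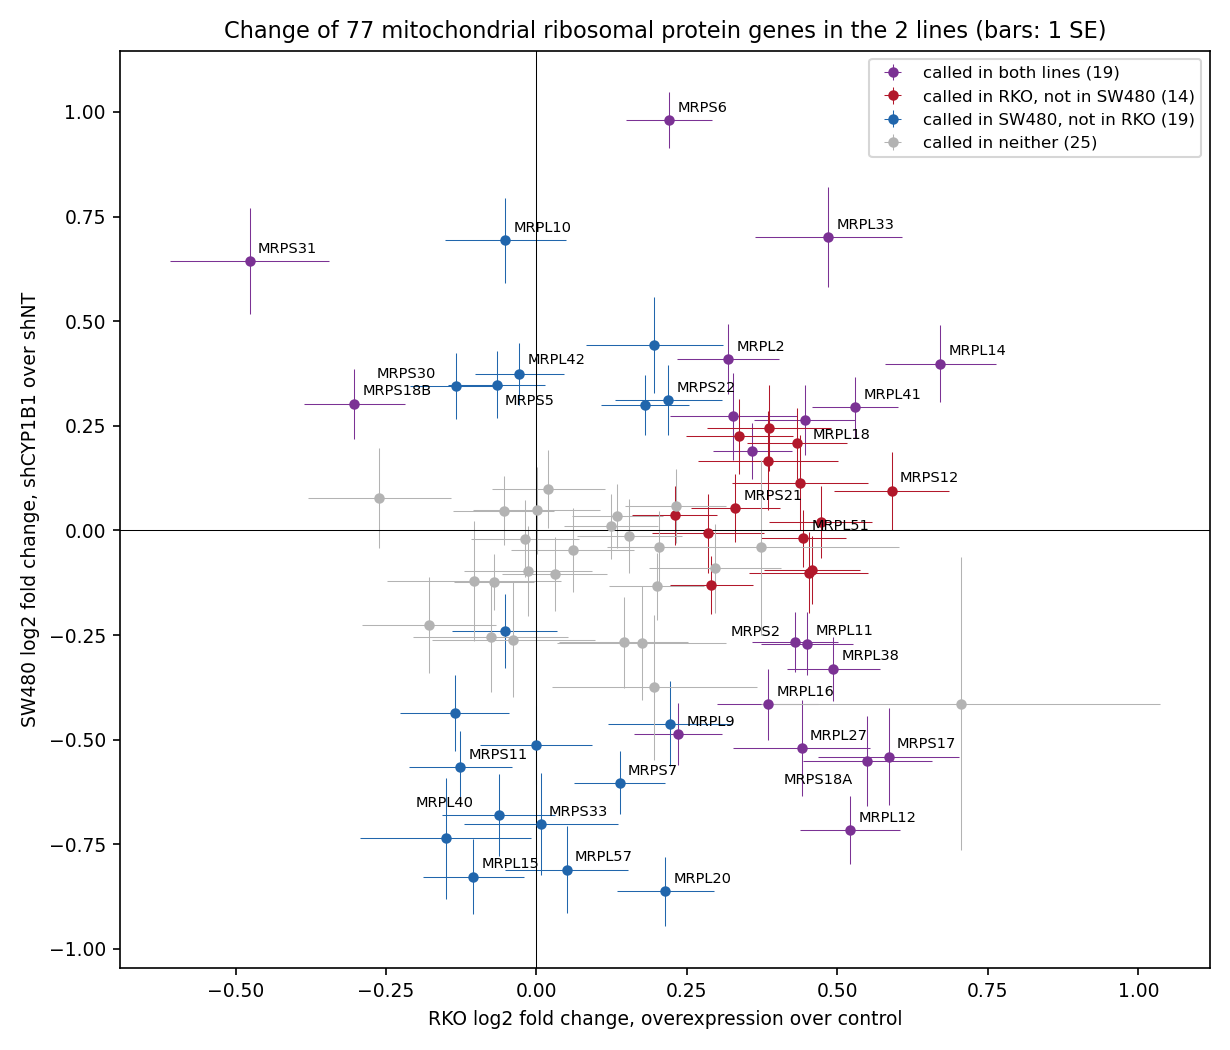
Log2 fold change of each of the 77 tested members in RKO (overexpression over control, x axis) and SW480 (shCYP1B1 over shNT, y axis), with bars of 1 SE and colours by call. The 19 members called in both lines spread over 3 corners: 8 are positive in both lines, 9 are positive in RKO and negative in SW480, and 2 are negative in RKO and positive in SW480.

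The 9 genes that rose in RKO and fell in SW480 were MRPL9, MRPL11, MRPL12, MRPL16, MRPL27, MRPL38, MRPS2, MRPS17 and MRPS18A. The difference was called for all 9, which is no separate result, since the genes were chosen by opposite calls on the same libraries. MRPL12 had the largest difference, 1.24 (SE 0.12, adjusted p = 2.08e-05, edgeR). It had 80.7 and 76.8 CPM in RKO overexpression and 53.7 and 56.0 CPM in RKO control, beside the SW480 values above. MRPL12 is known both as a ribosomal protein and as a partner of the mitochondrial RNA polymerase POLRMT. MRPS17, which binds the small ribosomal RNA, had 30.7 and 37.2 CPM in RKO overexpression and 24.0 and 21.3 CPM in RKO control, and 30.4 and 33.1 CPM in shCYP1B1 and 47.3 and 45.0 CPM in shNT. Its difference was 1.13 (SE 0.16, adjusted p = 3.23e-04, edgeR), and its groups did not overlap in either line. MRPS17 and MRPL16 missed the threshold in RKO without control library 2 (adjusted p of 0.0579 and 0.0629), MRPL27 without control library 1 or 2 (0.0950 and 0.0531), and MRPL9 (change of 0.24 in RKO) without control library 1 or 2 (0.0903 and 0.161) or without shNT library 1 or 2 (0.0630 and 0.0550). In SW480, MRPL38 did not pass without shNT library 1 (adjusted p = 0.0539), nor did MRPS2 without that library (0.0849) or without shCYP1B1 library 1 or 2 (0.0917 and 0.0733).

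Of the 8 genes that rose in both lines, MRPL14 had the smallest value for the larger of its 2 p-values. In SW480 it had 44.4 and 46.4 CPM in shCYP1B1 and 32.7 and 36.2 CPM in shNT, a change of 0.40 on the log2 scale (SE 0.09, adjusted p = 3.86e-03, edgeR), and without shNT library 1 the adjusted p was 0.0510. MRPL41 had 66.4 and 62.9 CPM in shCYP1B1 and 54.5 and 51.0 CPM in shNT, a change of 0.29 (SE 0.07, adjusted p = 5.62e-03, edgeR). It did not pass without shNT library 2 (adjusted p = 0.0664) or shCYP1B1 library 1 (0.0573). MRPL33, a large-subunit protein with a bacterial homologue, had 20.2 and 21.8 CPM in RKO overexpression and 14.1 and 15.9 CPM in control (0.48, SE 0.12), and 35.3 and 32.3 CPM in shCYP1B1 and 19.8 and 21.7 CPM in shNT (0.70, SE 0.12). Its RKO call was lost without control library 1 (adjusted p = 0.0970) and in the fit on RKO libraries alone (0.0521). The other genes of this kind were MRPL2, MRPL4, MRPL18, MRPL22 and MRPS6. MRPL22 lay near the threshold in both lines (edgeR). It rose by 0.33 (SE 0.11, adjusted p = 0.0386) in RKO and by 0.27 (SE 0.10, adjusted p = 0.0462) in SW480. The calls of MRPL4 and MRPL22 were not followed through the alternatives, as the naming rule did not take these genes. MRPS6 rose by 0.22 in RKO (SE 0.07, adjusted p = 0.0398, edgeR), a call that was lost in 10 of the alternatives, and its difference between the lines was -0.76 (SE 0.10, adjusted p = 1.37e-04, edgeR). MRPL2 lost its RKO call without control library 1 or 2 (adjusted p of 0.0556 and 0.0990) or on RKO libraries alone (0.0615), and MRPL18 its SW480 call when any SW480 library was left out (adjusted p from 0.0625 to 0.132).

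The promoters of 5 genes are shown because the difference between the lines (RKO minus SW480) was called for each: it was positive for MRPL12, MRPL20 and MRPS18A and negative for MRPS31 and MRPS18B. Each is the 250 bases before the RefSeq start of the gene, 5′ to 3′ on the gene's strand, from RefSeq (GRCh38.p14). Capitals mark CCGGAAG, the core bound by ETS factors such as GABPA, found on either strand.
MRPL12, chr17:81703117-81703366, plus strand: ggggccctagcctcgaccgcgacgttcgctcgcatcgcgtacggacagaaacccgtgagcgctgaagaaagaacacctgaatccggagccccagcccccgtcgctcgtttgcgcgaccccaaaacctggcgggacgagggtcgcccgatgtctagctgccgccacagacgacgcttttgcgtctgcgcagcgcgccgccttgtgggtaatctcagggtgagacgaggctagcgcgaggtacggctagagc
MRPL20, chr1:1407294-1407543, minus strand: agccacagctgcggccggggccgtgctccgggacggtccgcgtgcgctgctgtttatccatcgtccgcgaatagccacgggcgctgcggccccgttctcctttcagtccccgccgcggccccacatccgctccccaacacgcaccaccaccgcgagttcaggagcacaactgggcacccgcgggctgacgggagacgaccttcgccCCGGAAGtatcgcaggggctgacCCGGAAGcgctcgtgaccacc
MRPS18A, chr6:43687792-43688041, minus strand: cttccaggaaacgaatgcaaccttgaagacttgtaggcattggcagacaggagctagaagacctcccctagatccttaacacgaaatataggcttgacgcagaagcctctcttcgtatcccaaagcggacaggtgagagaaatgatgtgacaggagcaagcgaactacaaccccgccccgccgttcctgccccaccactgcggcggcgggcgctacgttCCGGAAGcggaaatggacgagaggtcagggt
MRPS31, chr13:40771191-40771440, minus strand: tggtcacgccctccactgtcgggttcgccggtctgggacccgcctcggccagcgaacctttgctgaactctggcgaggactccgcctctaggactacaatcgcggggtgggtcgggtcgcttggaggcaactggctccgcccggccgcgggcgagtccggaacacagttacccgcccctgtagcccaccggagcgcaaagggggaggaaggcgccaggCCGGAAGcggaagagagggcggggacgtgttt
MRPS18B, chr6:30617590-30617839, plus strand: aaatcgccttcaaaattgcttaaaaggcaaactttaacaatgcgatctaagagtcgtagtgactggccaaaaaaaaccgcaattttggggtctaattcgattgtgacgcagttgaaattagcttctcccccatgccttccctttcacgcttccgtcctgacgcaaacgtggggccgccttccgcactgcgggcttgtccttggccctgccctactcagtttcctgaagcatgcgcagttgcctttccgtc
MRPL20 holds this core at 2 places, the first at position -44, MRPS18A holds it at position -31 and MRPS31 at position -32, counted from the start, while the windows of MRPL12 and MRPS18B do not hold these letters. So a match stood before genes that moved in opposite directions.

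Over the 69 members with a promoter in the RefSeq table, CCGGAAG was found in 23 (33.3%), against 8.82% of all 27305 promoters of the same length and 11.8% of the 15842 of protein-coding genes. It was in 33.3% of the promoters of members that rose in RKO and in 34.2% of those of the other tested members, and in 3 of 15 promoters of members that rose and 5 of 19 of those that fell in SW480. Of other short motifs searched on both strands, the GC box GGGCGG was in 55.1% of member promoters (42.3% of all, 56.0% of protein-coding ones), CCAAT in 27.5% (33.0% and 34.5%), CACGTG in 8.70% (6.49% and 7.84%) and TATAAA in 2.90% (11.1% and 9.23%). CCAAT was in 12 of the 30 promoters of members that rose in RKO and in 7 of the 38 of the other tested members, and the GC box in 18 of 30 and 19 of 38. No test of these splits was made. A longer motif of NRF1 was in 11.6% of member promoters (5.53% of all, 7.65% of protein-coding ones), in 6.67% of those that rose in RKO and 15.8% of the others. A longer motif of YY1 was in 3 member promoters, or 4.35% (0.359% of all, 0.410% of protein-coding ones), with 0 among those that rose in RKO. None of the motifs contains another, though their ends can overlap. A match is only a run of letters, and binding was not measured.

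The MRPS18 paralogs differed in their calls, and no test set these genes against each other. All 3 genes descend from the bacterial S18 family, but MRPS18A resides in the large subunit and MRPS18B and MRPS18C at different sites of the small subunit. MRPS18A had 65.2 and 77.7 CPM in RKO overexpression and 49.8 and 47.8 CPM in control (0.55, SE 0.11, adjusted p = 3.29e-03, edgeR), and 34.9 and 39.1 CPM in shCYP1B1 and 57.8 and 50.7 CPM in shNT (-0.55, SE 0.11, adjusted p = 1.39e-03, edgeR). It rose in RKO and fell in SW480 by like amounts, and without control library 2 its RKO adjusted p was 0.0505. MRPS18B, besides its fall in RKO, had 104 and 107 CPM in shCYP1B1 and 86.5 and 84.8 CPM in shNT (0.30, SE 0.08, adjusted p = 0.0102, edgeR), a call lost without shNT library 1 or 2 or shCYP1B1 library 2 (adjusted p of 0.0548, 0.0611 and 0.0618). Differences between the lines were 1.10 for MRPS18A (SE 0.15, adjusted p = 2.23e-04, edgeR) and -0.61 for MRPS18B (SE 0.12, adjusted p = 2.06e-03, edgeR). MRPS18C had 20.9 and 19.8 CPM in RKO overexpression and 21.8 and 21.1 CPM in control, and 15.8 and 16.6 CPM in shCYP1B1 and 21.3 and 17.4 CPM in shNT. It passed in neither line (-0.08, SE 0.13, and -0.26, SE 0.13).

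MRPS31 had the strongest negative difference, -1.12 (SE 0.18, adjusted p = 6.86e-04, edgeR). In SW480 it had 44.7 and 42.4 CPM in shCYP1B1 and 27.6 and 28.1 CPM in shNT. The gene is at chr13:40729135-40771173, minus strand, and 4 pseudogenes are named after it. MRPL20 was called in SW480 and for the difference (1.08, SE 0.12, adjusted p = 4.74e-05, edgeR). In RKO, MRPL20 had 74.0 and 72.8 CPM in overexpression and 65.6 and 60.9 CPM in control, a change of 0.21 (SE 0.08, adjusted p = 0.0688, edgeR). Of the other members named by rule, MRPL58, a peptidyl-tRNA hydrolase built into the large subunit, stood at -0.10 (SE 0.14) in RKO and -0.12 (SE 0.14) in SW480, and MRPS36 at -0.04 (SE 0.14) and -0.26 (SE 0.14), with adjusted p of at least 0.134 (edgeR).

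Among the 5 mitoribosome subunits without an MRP name, AURKAIP1 and CHCHD1, both of the small subunit, rose in RKO. AURKAIP1 had 106 and 111 CPM in overexpression and 59.5 and 63.1 CPM in control, a change of 0.82 on the log2 scale (SE 0.08, adjusted p = 7.97e-05, edgeR), and CHCHD1 changed by 0.55 (SE 0.11, adjusted p = 4.17e-03, edgeR). In SW480, AURKAIP1 fell by 0.23 and DAP3, a GTP-binding small-subunit protein, rose by 0.30, and both calls were lost in several alternatives (adjusted p from 0.125 to 0.242 for AURKAIP1 without shNT library 1 or either shCYP1B1 library, where it was -0.15 without shNT library 1, and 0.0726 and 0.0621 for DAP3 without shNT library 2 or shCYP1B1 library 2). The adjusted p of AURKAIP1 in SW480 was 0.0563 without RKO control library 2, 0.0509 with RLE size factors and 0.0655 with DESeq2.

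Of 26 mitoribosome assembly genes, 6 rose (23.1%) and 3 fell (11.5%) in RKO, and 6 rose (23.1%) and 7 fell (26.9%) in SW480. The SW480 shares lay near the 25.3% of all genes each way. In RKO, where 13.8% of all genes went each way, the share that fell was near this and the share that rose was above it. TRUB2, a pseudouridine synthase, rose by 0.75 (SE 0.11) in RKO and fell by 1.42 (SE 0.11) in SW480. RPUSD4, another enzyme of that kind, rose by 0.39 (SE 0.09) in RKO and by 1.81 (SE 0.10) in SW480, with 72.1 and 72.6 CPM in shCYP1B1 and 21.0 and 20.3 CPM in shNT. The GTPase gene MTG1 had 10.4 and 9.83 CPM in shCYP1B1 and 31.1 and 32.8 CPM in shNT (-1.66, SE 0.10) and stood at -0.01 in RKO, where GTPBP10 fell by 0.65 (SE 0.12). MALSU1, an assembly factor of the large subunit, rose in both lines, by 0.52 (SE 0.09) and 0.46 (SE 0.09). The number of the list called in RKO was 4 without control library 2 (all genes 12.5%), and RPUSD4 then did not pass (adjusted p = 0.0942).

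Of 19 translation factor genes, 1 rose (5.26%) and 4 fell (21.1%) in RKO, against 13.8% of all genes each way, and 3 rose (15.8%) and 7 fell (36.8%) in SW480, against 25.3% each way. TSFM, an elongation factor, rose by 0.43 (SE 0.08) in RKO. MTIF2, the initiation factor, fell by 0.33 (SE 0.08) in RKO and 0.49 (SE 0.08) in SW480, and METAP1D, a methionine aminopeptidase, by 0.73 (SE 0.19) and 1.07 (SE 0.20). In SW480 the elongation factor GFM1 fell by 0.86 (SE 0.07), the recycling factor MRRF by 0.67 (SE 0.09) and GUF1 by 0.62 (SE 0.09). The RKO count rested on single libraries, as did that of all genes: 1 gene was called without control library 1 (all genes 15.9%), 1 without control library 2 (12.5%) and 10 without overexpression library 1 (39.7%). MTIF2 and METAP1D were not called in RKO without control library 1 (adjusted p of 0.0552 and 0.0799) or 2 (0.0854 and 0.0684).

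Of 21 genes of mitochondrial transcription, RNA processing and DNA maintenance, 8 rose (38.1%) and 1 fell (4.76%) in RKO, where 13.8% of all genes did each, and 6 rose (28.6%) and 7 fell (33.3%) in SW480, near the 25.3% of all genes. TBRG4, a regulator of mitochondrial RNA, and POLRMT, the RNA polymerase, rose in both lines, by 0.54 (SE 0.08) and 0.40 (SE 0.08) in RKO and by 0.38 (SE 0.08) and 0.62 (SE 0.08) in SW480. HSD17B10, a subunit of mitochondrial RNase P, rose by 0.44 (SE 0.08) in RKO and fell by 0.83 (SE 0.08) in SW480. SUPV3L1, an RNA helicase, fell by 0.52 (SE 0.09) in RKO and rose by 0.38 (SE 0.09) in SW480, a rise that did not pass without shNT library 1 (adjusted p = 0.0543). TFAM, which packages mitochondrial DNA and starts its transcription, had 32.7 and 37.6 CPM in shCYP1B1 and 79.0 and 72.4 CPM in shNT, a change of -1.11 (SE 0.10, adjusted p = 4.77e-06, edgeR), and stood at -0.07 in RKO.

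Of 11 transcription factors and coactivators linked to mitochondrial biogenesis, 3 rose and 1 fell in RKO, and 3 rose and 5 fell in SW480, numbers too small to read against the 13.8% and 25.3% of all genes in each direction. E2F1, a cell cycle factor, rose by 0.58 (SE 0.09) in RKO and fell by 0.49 (SE 0.09) in SW480. NRF1, nuclear respiratory factor 1, had 12.9 and 15.7 CPM in shCYP1B1 and 22.9 and 21.7 CPM in shNT (-0.64, SE 0.14, adjusted p = 2.57e-03, edgeR), and stood at 0.14 (SE 0.14) in RKO. PPARGC1A, the coactivator known as PGC-1 alpha, had 14.0 and 12.9 CPM in shCYP1B1 and 4.04 and 5.65 CPM in shNT (1.47, SE 0.29, adjusted p = 1.32e-03, edgeR), and was under 1 CPM in every RKO library. YY1 and ESRRA rose in RKO by 0.33 (SE 0.08) and 0.32 (SE 0.08), but YY1 did not pass without control library 2 (adjusted p = 0.107) nor ESRRA without control library 1 (0.0710). ESRRA also rose in SW480 by 0.28 (SE 0.07), a call lost without shNT library 1 or 2 or shCYP1B1 library 1 (adjusted p of 0.0567, 0.0608 and 0.0912). Of this list 2 genes were called in RKO without control library 1 or 2 (all genes 15.9% and 12.5%), and 4 and 5 in SW480 without shNT library 2 and without shCYP1B1 library 1 (all genes 36.2% and 36.9%).

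Of 14 mitochondrial chaperone and protease genes, 4 rose (28.6%) and 2 fell (14.3%) in RKO, and 3 rose and 3 fell (21.4% each) in SW480, where the shares of all genes were 13.8% and 25.3% each way. HSPE1, the small chaperonin, had 13.9 and 23.0 CPM in RKO overexpression and 5.80 and 7.25 CPM in control (1.50, SE 0.22), and HSPA9, the mitochondrial HSP70, fell by 0.52 (SE 0.06). The protease gene HTRA2 rose in both lines, by 0.52 (SE 0.10) and 0.47 (SE 0.09). In SW480 the protease gene LONP1 fell by 0.54 (SE 0.08) and the chaperone gene TRAP1 rose by 0.42 (SE 0.07). Without overexpression library 1, 12 of the 14 were called in RKO, in a fit that called 39.7% of all genes.

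**Figure D5:**
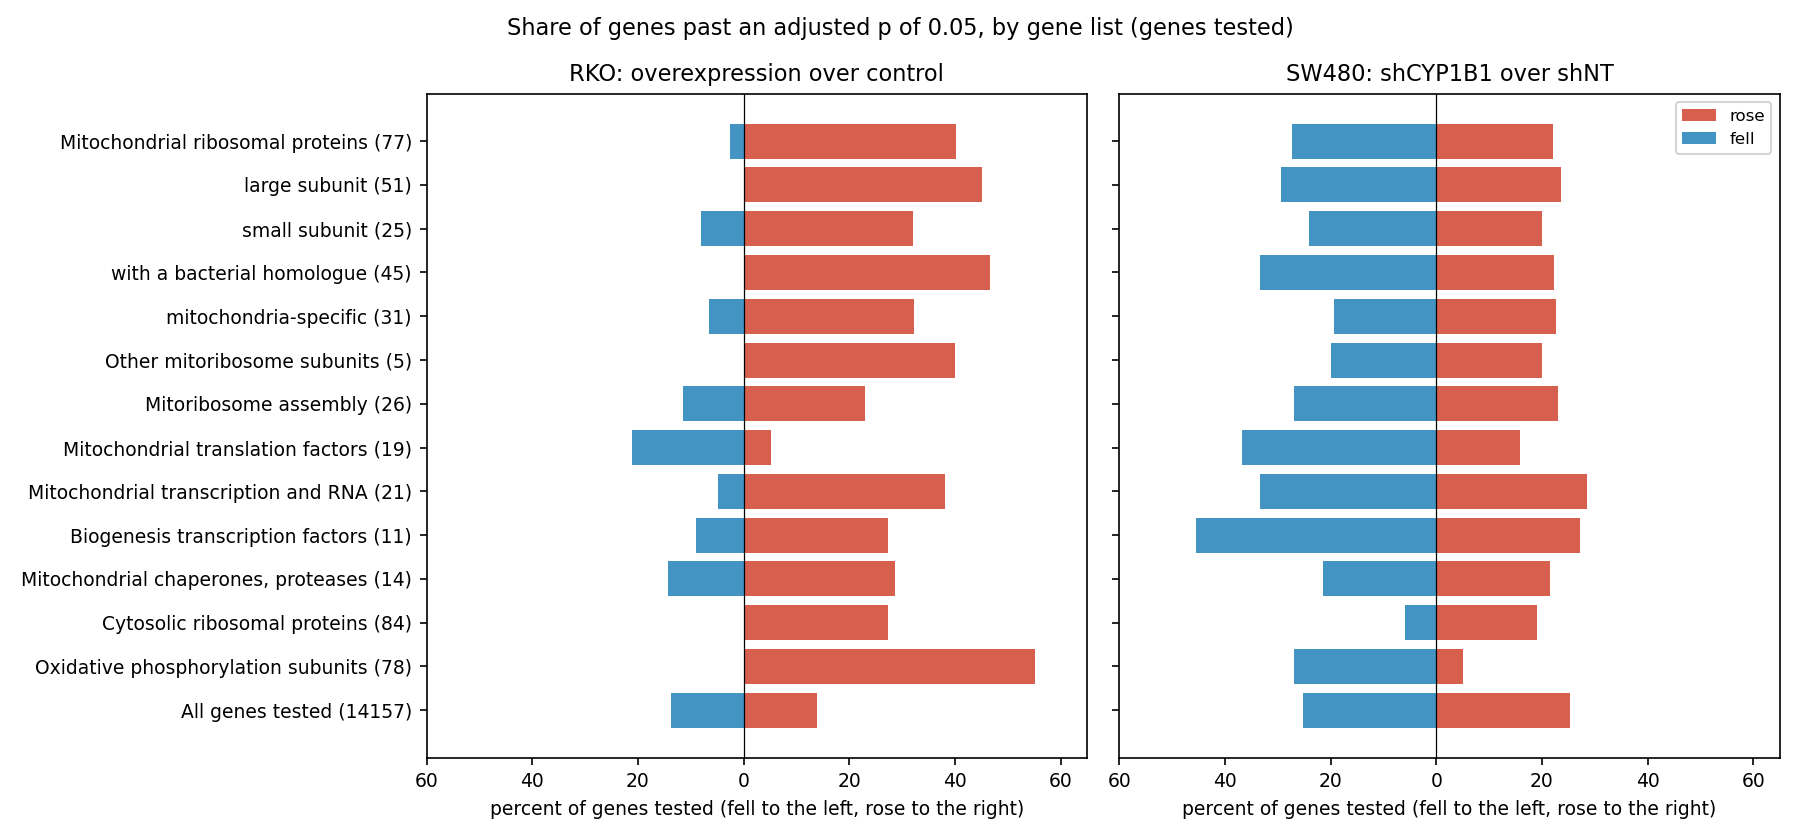
Percent of tested genes of each list that fell (left of 0) or rose (right of 0) at an adjusted p under 0.05, in RKO with overexpression over control and in SW480 with shCYP1B1 over shNT, with the number of genes tested in parentheses. In RKO 40.3% of mitochondrial ribosomal protein genes rose, beside 55.1% of oxidative phosphorylation subunits, 27.4% of cytosolic ribosomal proteins and 13.8% of all genes, and in SW480 no such one-sided share was seen for the members (22.1% rose, 27.3% fell).

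The nuclear genes of oxidative phosphorylation and of the cytosolic ribosome are set beside the members as the nearest groups by function. The shares of all genes were 13.8% each way in RKO and 25.3% each way in SW480. Of 78 tested oxidative phosphorylation subunits, 43 rose (55.1%) and 0 fell in RKO, with a median of 0.26. In SW480, 4 of them rose (5.13%) and 21 fell (26.9%), with a median of -0.07. The share that fell in SW480 was thus near that of all genes, and the share that rose was below it. Of 84 tested cytosolic ribosomal protein genes, 23 rose (27.4%) and 0 fell in RKO, with a median of 0.17. In SW480, 16 of these rose (19.05%) and 5 fell (5.95%), with a median of 0.08. Both SW480 shares of this list were below those of all genes, the share that fell by more. The share of mitochondrial ribosomal protein genes that rose in RKO lay between those of these lists. In the first overexpression library the medians were 0.24 for the members, 0.31 for oxidative phosphorylation and 0.25 for cytosolic ribosomal proteins, and in the second 0.15, 0.23 and 0.06. No test between the lists was made.

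Between the control groups of the lines the summed level overlapped, and a smaller share of members differed than of all genes, though some single members differed widely. SW480 shNT libraries held 5079 and 4976 CPM over the 78 genes and RKO control libraries 5119 and 4937. In SW480 shNT, 23 members (29.87%) were higher and 20 (25.97%) lower than in RKO control at an adjusted p under 0.05 (edgeR). Of all genes, 41.2% were higher and 35.6% lower. The median was 0.01, beside 0.08 for all genes. The SD of the log2 differences was 0.699 over the members, beside 3.06 over all genes, which ranged from -12.8 to 13.2. The quartiles lay closer, at -0.21 and 0.41 for the members and -0.64 and 1.1 for all genes. Genes of like level were not set beside the members. The line, its vector and its culture cannot be told apart. MRPS6 had 142 and 141 CPM in SW480 shNT and 24.5 and 23.5 CPM in RKO control, a difference of 2.56 (SE 0.07, adjusted p = 2.69e-11, edgeR). MRPS21 had 20.6 and 19.5 CPM in SW480 shNT and 89.9 and 87.7 CPM in RKO control, a difference of -2.15 (SE 0.08, adjusted p = 3.32e-10, edgeR), and 8 pseudogenes are named after it. These 2 genes thus differed several-fold between the lines in opposite directions. MRPS22, MRPS33, MRPL12 and MRPL51 were higher in SW480 shNT by 1.55, 1.48, 1.14 and 0.93, and MRPL13, MRPL15, MRPS30 and MRPL41 differed by -1.44, -1.29, -0.94 and -0.81 (SE between 0.07 and 0.13 for these 8, adjusted p of at most 8.20e-07, edgeR). By chromosome, the lowest median difference was -1.29, for the 3 members on chromosome 8 (0 higher, 2 lower). The highest was 1.03, for the 3 tested members on chromosome 7 (2 higher, 0 lower). Chromosome 21 had 0.89 over 2 members (1 higher, 1 lower) and chromosome 11 had 0.79 over 7 (5 higher, 1 lower). All genes of these chromosomes were not set beside them. DNA copy number was not analysed here.

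The counting limits what some members can show. In GENCODE 29, 41 members share exon bases with another gene and 34 have at least 1 pseudogene named after them. The use of strand in counting is not given in the sources used here, so overlapping genes on either strand cannot be told apart. The share with a single other gene was over 30% for 8 members. Among them were MRPL12 (68.2%, with AC139530.2 on the same strand) and MRPS18A (47.0%, with RSPH9 on the opposite strand). Others were MRPS18C (40.2%, with ABRAXAS1 on the opposite strand) and MRPL38 (37.5%, with AC087289.3 on the same strand). Shares with several genes were not added up, as for MRPL9 (OAZ3 18.4%, AL589765.7 14.8% and AL589765.4 6.51%). Of the 20 tested members with neither feature, a set formed after the results were known, 9 rose and 0 fell in RKO (all genes 13.8% each way), and 5 rose and 5 fell in SW480, a share equal to that of all genes to within 1 gene (25.3% each way).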

How the data were processed

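The authors deposited raw counts of reads per gene. They also deposited FPKM, in which counts are scaled by gene length and library total. The submitters' processing notes name GRCh38.p13 as the build. Not given in the sources used here were aligner, counter, annotation and the use of strand. Libraries came from a stranded mRNA kit, per the labels' protocols. Genes were filtered with filterByExpr (minimum count 10, minimum total 15), scaled by TMM and fitted over all 8 libraries with 1 coefficient per group in edgeR 4.0.16 under R 4.3.3. Benjamini-Hochberg adjustment ran over 14157 genes, with a threshold of 0.05. The SE is the log2 fold change divided by the square root of F. Only the main edgeR fit was run on simulated counts with known changes, without the comparison of the control groups, and its recovery is not given here. Positions are from GENCODE 29 (78 of 78 symbols matched) and promoters from RefSeq. The members and lists were chosen with earlier results of these data known. Named members are, per comparison and direction, the up to 8 called with the smallest p (5 between control groups). Except for the difference between the lines, their libraries also had to be without overlap between the groups. Leading members called in both lines, the extremes of FPKM and 10 fixed genes were added, with up to 3 per list and line. Of the members called in both lines, MRPL4 and MRPL22 were left out by this rule. Alternatives were RLE or no scaling, other filters, DESeq2 1.42.0, limma 3.58.1 on FPKM, single lines, a replicate block and each library left out. Counting intervals are not given, since counts of the named members are large and replicate spread exceeds counting error.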

Additional observations from a re-analysis of the deposited data

Results flagged for a closer look

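The 15 members listed here were named by rule, for passing the test of the difference itself (edgeR, adjusted p under 0.05). In it, the effect of overexpression in RKO differed from that of knockdown in SW480. Since these members were chosen by this test, that they passed is not a further result. The differences, RKO effect minus SW480 effect on the log2 scale, were 1.24 for MRPL12, 1.13 for MRPS17, 1.10 for MRPS18A, 1.08 for MRPL20, 0.82 for MRPL38, 0.74 for MRPS7, 0.72 for MRPL9 and 0.70 for MRPS2. They were -1.12 for MRPS31, -0.76 for MRPS6, -0.74 for MRPL10, -0.61 for MRPS18B, -0.48 for MRPS30, -0.41 for MRPS5 and -0.40 for MRPL42. The MRPL42 call was lost in 4 alternatives and that of MRPS5 in 2 (without RKO control library 1, adjusted p = 0.0658, and without shNT library 2, adjusted p = 0.0557). A difference here sets a gain of CYP1B1 in one line against a loss in the other. No group has enough libraries to look for single outlying ones.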

How the results depend on the processing

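No direction of a named member that passed was turned by an alternative. Of the members named and called, 9 of 20 in RKO, 21 of 29 in SW480, 21 of 25 for the difference and 23 of 26 between the control groups passed in every alternative. The fit of RKO libraries alone gave 0 members that fell, and in it the RKO calls of MRPL9 (adjusted p = 0.114), MRPS6 (0.224), MRPS18B (0.0957), MRPS31 (0.0841), MTIF2 (0.0538), YY1 (0.0624) and ESRRA (0.0536) were lost too (edgeR). The SW480 median (-0.04) was -0.0157 with RLE scaling, -0.0851 with library size only, -0.0158 with DESeq2, and -0.0809, -0.0848 and -0.0844 with limma on log2(FPKM + 1), log2(FPKM + 0.1) and log2(FPKM + 1) without a filter. The median between the control groups (0.01) was 0.0514 with RLE scaling and with DESeq2, -0.0371 with library size only, -0.0047 with no filter, 0.0361 with the 1 CPM filter, and -0.0362, -0.0370 and -0.0358 with these limma fits, so its sign is not settled. With each library left out in turn, RKO gave 14 to 40 members that rose, 0 to 8 that fell and medians of 0.15 to 0.24. SW480 gave 11 to 20 that rose, 17 to 27 that fell and medians of -0.0880 to -0.0244. The difference gave 20 to 35 positive and 5 to 9 negative members and medians of 0.21 to 0.29, and the control groups 20 to 26 higher, 16 to 26 lower and medians of -0.0152 to 0.0363. Where a group keeps 1 library, its spread is taken from the other groups. The replicate numbers did not pair the samples, since deviations of same-numbered libraries correlated by -0.00532 in RKO and -0.0115 in SW480. With the replicate number as a block, 28 members rose and 2 fell in RKO, and 17 rose and 20 fell in SW480. The RKO calls of MRPL9 (adjusted p = 0.0573, edgeR) and MRPS6 (0.0801) were then lost. The control-group median was -0.0283 in this fit. Each line had its own block there, so that median compares the control groups at the level of replicate 1, unlike the main one. With 2 libraries a group, small changes may go undetected, and MRPS24 could not be tested.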
